A study of Drosophila melanogaster with 14 samples.

Results

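The Antennapedia and bithorax complexes are the clusters of homeotic (Hox) genes of Drosophila melanogaster, both on chromosome arm 3R. The Antennapedia complex was taken as the 360 bins of 1 kb from 2480001 to 2840000 (dm3 build), and the bithorax complex as the 330 bins from 12480001 to 12810000. Together they held 690 of the 168744 bins that tile the genome, and they were chosen by position, with no measured value used. Each was set against its flanks, the 200 kb on either side. RNA was measured in adult ovaries, where Cutoff (gene cuff), a nuclear protein of the germline piRNA pathway, had been knocked down by a short hairpin.

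Hox genes encode homeodomain transcription factors that give segments along the body axis their identity. In most cells where a Hox gene is off, Polycomb group proteins hold it silent within a broad domain of chromatin that carries methylated histone H3 lysine 27, and both complexes are textbook examples of such domains. The adult ovary holds germline cells, namely nurse cells and oocytes, and somatic follicle cells. The Antennapedia complex also houses genes that are not homeotic, among them bicoid (bcd), whose mRNA is made by nurse cells and carried into the oocyte to set up the head end of the embryo. Histone marks were not among the measurements used here, so the domains are described by their transcription alone.

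The shCuff flies carried the germline driver P{GAL4::VP16-nos.UTR}CG6325MVD1 over the hairpin insertion TRiP.GL00054 at attP2. In the shWhite flies the same driver stood over TRiP.HMS00017 at attP2, which targets white, an eye pigment gene, so both groups expressed a hairpin. The control of the run-on comparison was w[1118] with the driver and no hairpin. All flies were 3 to 14 days old. The driver acts in germline cells, so follicle cells of the same ovaries should not express the hairpin, and the level of cuff itself was not analysed here. Ribosomal RNA was removed for the total RNA libraries, of which shCuff and shWhite had 2 each. Both genotypes had 1 library of poly(A) RNA, and nuclear run-on compared 1 shCuff library with 1 of the driver control. In nuclear run-on, polymerases already engaged on DNA extend their RNA in isolated nuclei with a labelled nucleotide, so the reads show transcription rather than the RNA that accumulates. Replicate 1 of total RNA and the poly(A) libraries carry one library prefix in their titles, and replicate 2 and the run-on libraries another.

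Libraries held 2438627 to 10932667 reads. Levels are given as RPKM, reads per kb and per 1000000 library reads. The chorion gene cluster at 66D on 3L, a defining locus of ovarian follicle cells, averaged 1167 and 1130 RPKM in the shCuff and 620.5 and 806.9 RPKM in the shWhite total RNA libraries. The 117542 bins of the main chromosome arms outside the complexes and their flanks averaged 7.09 to 8.25 RPKM over the 8 libraries. One library stood apart in how its reads were spread: in shCuff total RNA replicate 2, only 8.37% of its covered bins were at 1 to 3 reads, against 33.3% to 44.4% in the other RNA libraries. Its effect is given beside each result that it touches. A bin without reads cannot be told from one whose sequence cannot be mapped uniquely.

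The bithorax complex was close to silent. In total RNA it averaged 0.0370 and 0.194 RPKM in shCuff ovaries, against 0.0307 and 0.0325 RPKM in shWhite ovaries. Poly(A) RNA gave 0.0313 RPKM in shCuff and 0.0359 RPKM in shWhite. Run-on gave 0.193 RPKM in shCuff and 0.148 RPKM in the driver control. These levels rest on 36 and 470 reads in the shCuff and 34 and 61 reads in the shWhite total RNA libraries, on 113 and 99 poly(A) reads, and on 160 and 119 run-on reads. The second shCuff total RNA library lies above the other 5 RNA libraries, which agree within a narrow range.

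The flanks of the bithorax complex were transcribed on both sides. The left flank averaged 7.28 to 11.8 RPKM in the 6 RNA libraries and 4.23 and 5.23 RPKM in shCuff and control run-on. The right flank averaged 6.10 to 10.8 RPKM in RNA and 8.28 and 8.73 RPKM in run-on. The complex was below each flank in 8 of 8 libraries. Over the 4 total RNA libraries the complex was lower than both flanks together by a log2 ratio of -7.45 ± 1.17 (SD, n = 4), a 174.5-fold difference. The exact two-sided sign-flip permutation test gave p = 0.125, which is the smallest p that 4 libraries allow. Without shCuff replicate 2 the mean log2 ratio was -8.03. In poly(A) RNA the flanks stood 278.6-fold (95% counting interval 231.6 to 338.1) above the complex in shCuff and 249.0-fold (204.4 to 306.5) in shWhite. In run-on the gap was narrower, at 32.4-fold (27.7 to 38.2) in shCuff and 47.2-fold (39.4 to 57.1) in the control. These intervals cover counting error only.

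**Figure D1:**
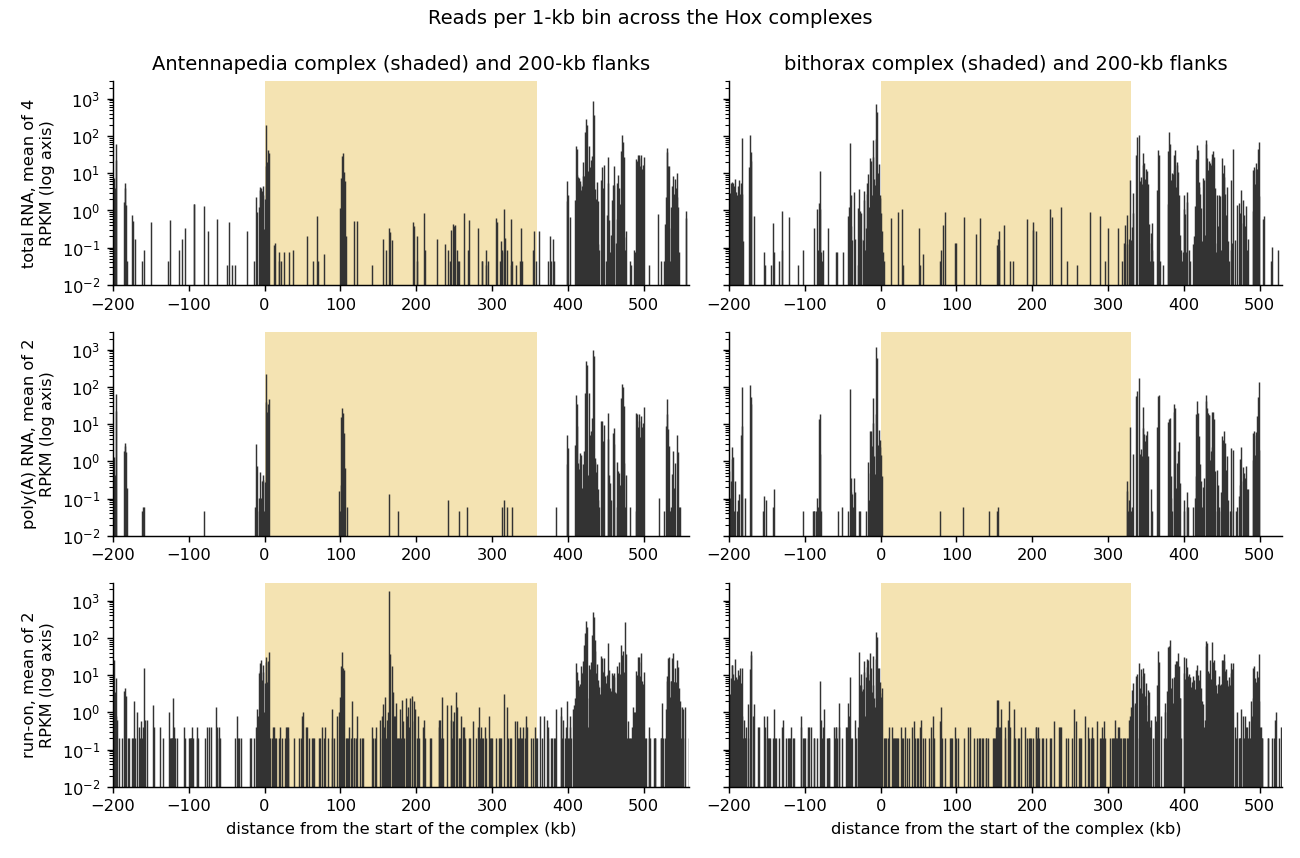
Mean RPKM per 1-kb bin (log axis) across each complex (shaded) and its 200-kb flanks, by distance from the start of the complex, for the 4 total RNA, 2 poly(A) and 2 run-on libraries. Most RNA in the Antennapedia complex lies at its start and at bcd, and the bithorax complex holds few reads between transcribed flanks. The total RNA mean includes shCuff replicate 2. That library had 18 bins of the Antennapedia and 19 of the bithorax complex with 10 or more reads and at most 1 in any other RNA library.

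In the 5 RNA libraries other than shCuff total RNA replicate 2, most of the few reads of the bithorax complex lay within 10 kb of its ends. The last bin, 12809001 to 12810000, borders the right flank. It held 28 and 36 reads in the shCuff and 27 and 25 reads in the shWhite total RNA libraries, and 87 and 73 poly(A) reads in shCuff and shWhite. Run-on had 1 read there in each library. Without that bin the complex averaged 0.00824 and 0.180 RPKM in shCuff and 0.00634 and 0.0192 RPKM in shWhite total RNA. Leaving out the 10 kb at either end, shCuff replicate 1 and shWhite replicate 1 had 1 read each over the remaining 310 kb, shWhite replicate 2 had 19 reads, and the poly(A) libraries had 3 in shCuff and 2 in shWhite. The exception was shCuff replicate 2, with 400 reads there.

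Silence could also be read as bins with no read at all. In the bithorax complex 278 of 330 bins (84.2%) had 0 reads in all 6 RNA libraries, and 305 bins (92.4%) had none when shCuff replicate 2 was left out. The longest unbroken run without reads in those 5 libraries was 70 kb, from 12655001 to 12725000, which runs from the end of the abd-A interval towards Abd-B. The left flank had 105 of 200 bins (52.5%) without RNA reads and the right flank 57 of 200 (28.5%). Run-on left fewer gaps: 192 of the 330 bins (58.2%) had no read in either run-on library, against 39.0% in the left and 17.5% in the right flank. The run-on reads of the complex were thinly spread, since 94 bins with reads in shCuff and 71 in the control shared 160 and 119 reads.

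In RNA, a few other stretches of the genome were quieter, while in run-on none was. Among 354 other stretches of 330 kb on the main arms, 3 had a lower mean level than the bithorax complex in total RNA. In poly(A) RNA 5 were lower, and run-on had 0. Without shCuff replicate 2, 2 were lower in total RNA. The median stretch had 5.51 RPKM in total RNA and 6.11 RPKM in run-on libraries.

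The homeotic genes of the bithorax complex specify the posterior thorax and the abdomen. Gene intervals were taken from background knowledge of the dm3 map and rounded to 1 kb, and the counts carry no strand, so a read in an interval need not come from the gene. Ubx (Ultrabithorax), which specifies the third thoracic segment, had 1 and 87 reads in the shCuff and 1 and 5 reads in the shWhite total RNA libraries, with 1 poly(A) read in shCuff and 0 in shWhite. The interval of abd-A, which acts in anterior abdominal segments, had 0 and 20 reads in shCuff and 1 and 9 reads in shWhite total RNA, and 1 poly(A) read in each genotype. Abd-B, the gene of the most posterior segments, had 0 and 68 reads in shCuff and 0 and 2 reads in shWhite total RNA, and 0 poly(A) reads in both genotypes. A count of 0 allows up to 3 reads, which for Abd-B is 0.00584 RPKM in the deeper poly(A) library, shCuff, and 0.00763 RPKM in shWhite. Apart from shCuff replicate 2, the 3 intervals together had 1 to 16 reads in each RNA library. They had 102 run-on reads in shCuff and 50 in the control, which is 0.269 and 0.136 RPKM.

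**Figure D2:**
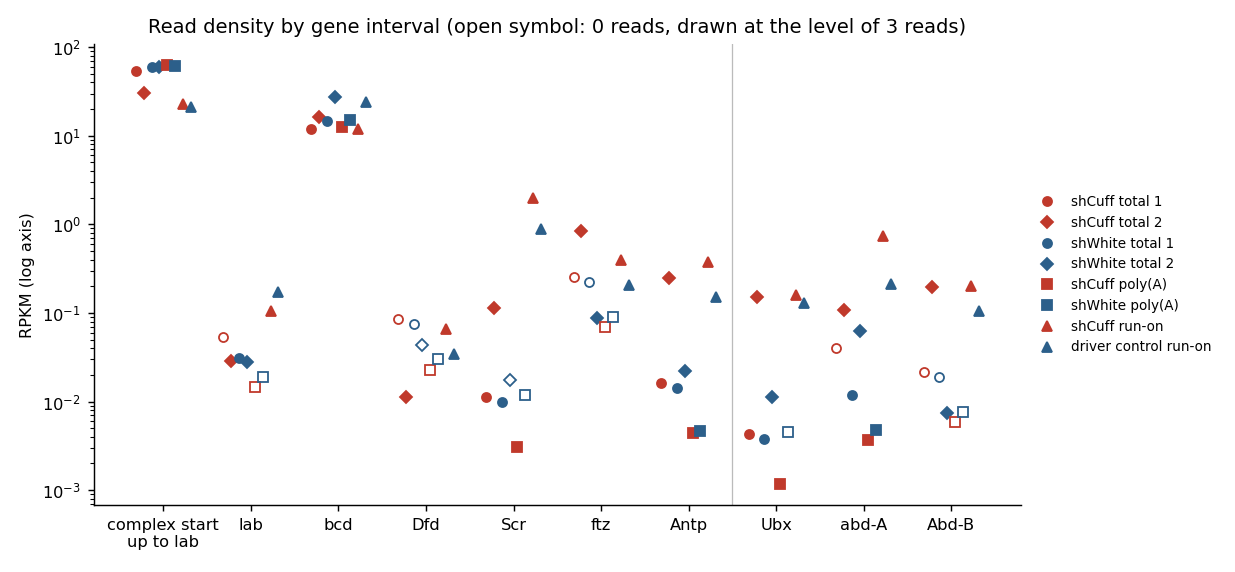
RPKM (log axis) in the start of the Antennapedia complex and in 9 gene intervals for each of the 8 libraries, with shCuff in red and its control in blue. Open symbols mark 0 reads and are drawn at the level that 3 reads would give; the complex start and bcd lie above the homeotic intervals in every library.

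The Antennapedia complex was less quiet as a whole. In total RNA it averaged 1.07 and 0.874 RPKM in shCuff ovaries, against 1.21 and 1.39 RPKM in shWhite ovaries. Poly(A) RNA gave 1.227 RPKM in shCuff and 1.225 RPKM in shWhite. Run-on gave 6.64 RPKM in shCuff and 5.26 RPKM in the driver control. The RNA levels lie well below the main arm average in all 6 libraries, while run-on comes near it.

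Whether this complex was quieter than its surroundings depended on the side. The right flank averaged 14.7 to 18.8 RPKM in the 8 libraries, and the complex lay below it in 8 of 8. The left flank averaged only 0.669 and 0.911 RPKM in the shCuff and 0.667 and 0.711 RPKM in the shWhite total RNA libraries, and the complex was below it in 1 of 8 libraries, shCuff total RNA replicate 2. Against both flanks together the log2 ratio in total RNA was -2.86 ± 0.34 (SD, n = 4), a 7.23-fold difference. The exact sign-flip permutation test gave p = 0.125, again the smallest possible. Against the left flank alone it was 0.61 ± 0.46 (exact permutation p = 0.25), and against the right flank alone -3.79 ± 0.33 (exact permutation p = 0.125). Thus the direction of the comparison with both flanks came from the right one.

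The transcribed part of the right flank began beyond its first 50 kb. Those first 50 kb averaged 0.393 and 0.357 RPKM in shCuff and 0.197 and 0.169 RPKM in shWhite total RNA, and the remaining 150 kb averaged 19.5 to 22.1 RPKM in the same 4 libraries. With flanks of 50 kb on either side, the complex was higher than its flanks, by a mean log2 ratio of 1.51 in total RNA. The nearest 50 kb on the left had 0.461 and 0.724 RPKM in shCuff and 0.214 and 0.830 RPKM in shWhite total RNA. Run-on gave 2.40 RPKM there in shCuff and 2.21 RPKM in the control. Total RNA was thus low in the near flank on either side, but not at the left end of the complex itself, which was transcribed. The excess of the complex over these near flanks in total RNA came mostly from short stretches inside it, given below.

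**Figure D3:**
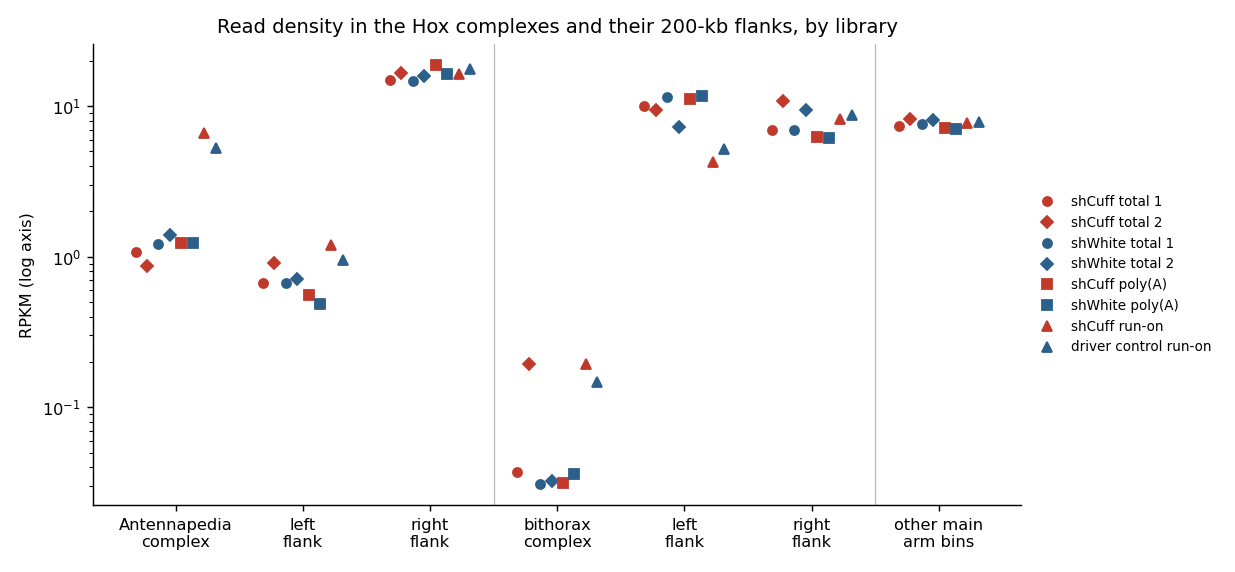
RPKM (log axis) of each complex, its left and right 200-kb flanks and all other main arm bins, 1 point for each of the 8 libraries (red shCuff, blue control). The bithorax complex lies below both flanks in every library. The Antennapedia complex lies below its right flank in every library. It lies above its left flank in all but shCuff total RNA replicate 2, most so in run-on.

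Nearly all RNA of the Antennapedia complex came from 2 short stretches. The first, 2480001 to 2486000, covers the 6 bins before the interval of lab. It held 949 and 1344 reads in the shCuff and 1203 and 2029 reads in the shWhite total RNA libraries, 4133 and 3055 poly(A) reads in shCuff and shWhite, and 346 and 306 run-on reads in shCuff and the control. These are 58.2% to 85.6% of the RNA reads of the complex. In the gene order of RefSeq (Release 6, used for names only), Taf1, CG1307, twr and agt precede lab on this side; which of them gave the reads was not determined. The bin with most reads here was 2482001 to 2483000, with 652 and 907 reads in shCuff and 820 and 1019 reads in shWhite total RNA.

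The second stretch, 2579001 to 2586000, covers bcd. Its left edge was set by shCuff total RNA replicate 2, which had 637 reads over the whole stretch. The bcd interval itself, 2581001 to 2586000, held 177 and 591 reads in the shCuff and 249 and 780 reads in the shWhite total RNA libraries. Poly(A) RNA had 682 reads in shCuff and 627 in shWhite, and run-on 151 in shCuff and 294 in the control. Per length, bcd stood at 12.0 and 16.1 RPKM in shCuff and 14.8 and 27.4 RPKM in shWhite total RNA, at 12.5 and 15.0 RPKM in poly(A) RNA, and at 12.0 and 24.1 RPKM in run-on. It is the only one of the 9 gene intervals with more than 1 RPKM in any RNA library.

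Outside its start and the bcd interval the Antennapedia complex had little RNA. The start was chosen after its values were seen, so what remains is a description. The remaining 349 bins averaged 0.0126 and 0.147 RPKM in shCuff and 0.0128 and 0.0166 RPKM in shWhite total RNA. Poly(A) RNA had 16 reads there in shCuff and 7 in shWhite, which is 0.00419 and 0.00240 RPKM. The left flank, from which no bins were taken out, was above these bins in each RNA library. It had 0.669 and 0.911 RPKM in shCuff and 0.667 and 0.711 RPKM in shWhite total RNA. In poly(A) RNA it had 0.554 RPKM in shCuff and 0.488 RPKM in shWhite. The comparison is uneven, since the bin from 2283001 alone held 23.3% to 63.6% of the left flank's reads in the RNA libraries and was kept. Of all 360 bins, 276 (76.7%) had 0 reads in the 6 RNA libraries, and 304 (84.4%) without shCuff replicate 2. By this measure the complex was near its left flank, at 77.5% and 84.5%, and above its right flank, at 40.5% and 45.5%. The longest run of such bins in those 5 libraries was 51 kb, from 2589001 to 2640000, which spans the interval of Dfd. The left flank had a longer one, of 65 kb.

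The homeotic intervals of this complex had few RNA reads. The interval of lab (labial, a head gene) had 0 and 4 reads in shCuff and 2 and 3 reads in shWhite total RNA, and 0 poly(A) reads in both genotypes. Dfd (Deformed, of the jaw segments) had 0 and 1 reads in shCuff and 0 and 0 in shWhite total RNA, and 0 poly(A) reads in both, which allows at most 0.0229 RPKM in shCuff and 0.0299 RPKM in shWhite poly(A) RNA. Scr (Sex combs reduced, of the labial and first thoracic segments) had 1 and 25 reads in shCuff and 1 and 0 reads in shWhite total RNA. In Antp (Antennapedia, of the thorax) the interval of 104 kb held 5 and 191 reads in shCuff and 5 and 13 reads in shWhite total RNA, and 5 and 4 poly(A) reads in shCuff and shWhite. The pair-rule segmentation gene ftz, which lies between them, had 0 and 25 reads in shCuff and 0 and 2 reads in shWhite total RNA. In each interval other than lab and Dfd the second shCuff library was the highest of the total RNA libraries by a wide margin.

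Run-on differed from RNA most in one bin. The bin 2644001 to 2645000, between the intervals of Dfd and Scr, held 5002 run-on reads in shCuff and 3767 in the control, 83.3% and 81.6% of the run-on reads of the whole complex. The RNA libraries had 1 and 0 reads there in shCuff and 1 and 4 reads in shWhite total RNA, and 3 and 0 poly(A) reads in shCuff and shWhite. The next bin had 107 run-on reads in shCuff and 75 in the control, and the bin from 2648001 had 58 and 29. RefSeq's gene order places lysine tRNA genes and genes of the signal recognition particle RNA between Dfd and Scr. Both kinds of RNA are short, abundant products of RNA polymerase III. Whether one of them lies in this bin was not determined, and such genes have near-identical copies elsewhere between which reads may have been split.

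Without that bin, run-on over the Antennapedia complex was 1.11 RPKM in shCuff and 0.970 RPKM in the control. The left flank had 1.19 and 0.951 RPKM in the same libraries. Outside the complex start and bcd as well, run-on over the complex was 0.575 RPKM in shCuff and 0.293 RPKM in the control. For comparison, the bithorax complex had 0.193 and 0.148 RPKM in the same libraries. Among 324 other stretches of 360 kb on the main arms, 21 had a lower mean level than the Antennapedia complex in total RNA and 35 in poly(A) RNA. In run-on 137 were lower than the whole complex, and 8 were lower when the bin 2644001 to 2645000 was left out of it.

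**Figure D4:**
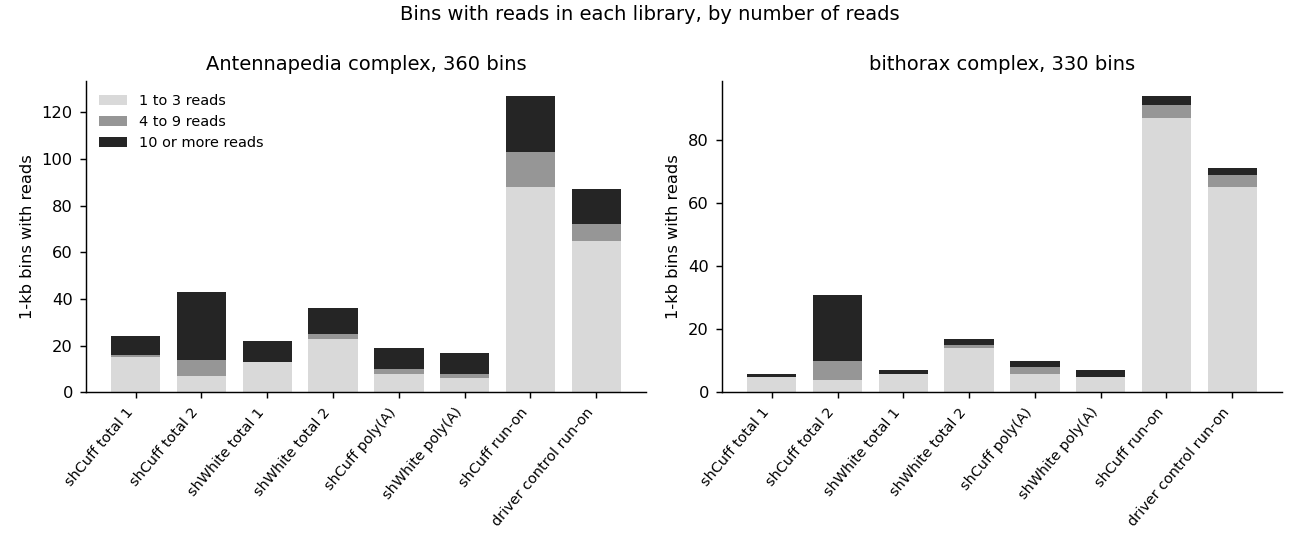
Number of 1-kb bins with reads in each library, split by reads per bin, for the 360 bins of the Antennapedia complex and the 330 bins of the bithorax complex. In run-on and in the other total RNA libraries most bins with reads hold 1 to 3, while shCuff total RNA replicate 2 has mostly bins with 10 or more.

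The second shCuff total RNA library differed in kind as well as in level. In the bithorax complex it had 19 bins with 10 to 37 reads in which no other RNA library had more than 1 read, and these held 371 of its 470 reads (78.9%). The Antennapedia complex had 18 such bins, with 310 of 2311 reads (13.4%). No other RNA library had such a bin in either complex. These bins were not particular to the complexes: the same library had 4585 of them on the main arms outside the complexes and flanks, 3.90% of those bins, against 5% of the bins of the Antennapedia complex and 5.76% of those of the bithorax complex. The comparisons of shCuff with shWhite that follow are given with and without that library where it changed them.

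For the knockdown, total RNA gave no call in either complex. The Antennapedia complex had 1139 and 2311 reads in shCuff and 1467 and 2842 reads in shWhite, at the levels given above, so shCuff was the lower one in both pairs of libraries. The ratio of shCuff to shWhite was 0.884 (95% counting interval 0.817 to 0.955) in the replicate 1 pair and 0.630 (0.596 to 0.666) in the replicate 2 pair. edgeR's quasi-likelihood test, with terms for genotype and library set, gave a log2 fold change of -0.42 (SE 0.28, adjusted p = 0.628). The pairs differ from each other by more than counting error, and the fold is within the spread between libraries.

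The bithorax complex gave a ratio of 1.21 (0.733 to 1.99) in the replicate 1 pair and 5.97 (4.56 to 7.93) in the replicate 2 pair. Here edgeR gave a log2 fold change of 1.48 (SE 0.66, unadjusted p = 0.0487, adjusted p = 0.578 over all features tested). Without the term for library set the log2 fold change was 1.87. Leaving out shCuff replicate 2 as well, it was 0.23, so its size came from that 1 library. The 4 flanks had log2 fold changes of 0.05 to 0.18 with adjusted p of 0.839 or more. Among the 7558 regions and 10-kb windows tested in that fit, 0.304% were called.

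At finer scale the outcome was the same. Of the 690 bins, 17 reached the mean of 1 RPKM needed to enter the test, 13 in the Antennapedia and 4 in the bithorax complex, and 0 of them were called by edgeR at an adjusted p of 0.05, against 0.106% of the 27388 bins tested genome-wide. At an unadjusted p under 0.05 there were 3, all in the Antennapedia complex, against 1264 of the 27388 bins. The lowest unadjusted p was that of the bcd bin 2582001 to 2583000, with 70 and 27 reads in shCuff and 93 and 328 reads in shWhite (log2 fold change -2.06, SE 0.76, edgeR adjusted p = 0.963). The other 2 lie at the start of the complex. Of the 4 bithorax bins, 3 passed the filter only through shCuff replicate 2. So did the Antp bin 2795001 to 2796000 and the bin from 2579001, just before the bcd interval. Of the 69 windows of 10 kb, 13 were tested and 0 called by edgeR, against 0.315% called of 7616 windows. Only 5 windows of the complexes reached the filter when shCuff replicate 2 was left out. At an unadjusted p under 0.05 there was 1 window of the complexes, against 599 of all windows. It starts at 12700001 (log2 fold change 7.28). Its bin 12703001 to 12704000 had 0 and 33 reads in shCuff and 0 and 0 in shWhite total RNA. DESeq2 and limma also called 0 bins and 0 windows of the complexes.

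Poly(A) RNA, with 1 library per genotype, has no test of genotype. The ratio of shCuff to shWhite was 1.00 (0.960 to 1.05) in the Antennapedia complex and 0.874 (0.661 to 1.16) in the bithorax complex. Of the bins that averaged 1 RPKM or more over the pair, 9 lay in the Antennapedia and 2 in the bithorax complex. None of these 11 differed 2-fold on the log2(RPKM + 1) scale, against 3.19% of 18680 bins that were higher and 1.85% that were lower in shCuff genome-wide. The largest differences in the Antennapedia complex were a log2 difference of -0.59 in the bin 2485001 to 2486000, with 414 reads in shCuff and 480 in shWhite, and of 0.42 in the bin 2483001 to 2484000, with 271 and 153 reads. Both lie at the start of the complex and point in opposite directions.

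In run-on, where the control lacked a hairpin, the shCuff library was the higher one over both complexes. The ratio was 1.26 (1.21 to 1.31) in the Antennapedia complex and 1.31 (1.02 to 1.67) in the bithorax complex. With TMM factors in place of library totals the bithorax interval included 1, at 1.26 (0.988 to 1.61). The right flank of the Antennapedia complex had a ratio of 0.932 (0.904 to 0.960), and its left flank 1.25 (1.11 to 1.42). In the quiet first 50 kb of the right flank, 63 reads in shCuff and 25 in the control gave 2.45 (1.52 to 4.06). The nearest 50 kb of the left flank gave 1.08 (0.915 to 1.28). Both bithorax flanks were below 1, at 0.809 (0.763 to 0.857) and 0.949 (0.909 to 0.9901). Leaving out the bin 2644001 to 2645000, the Antennapedia ratio was 1.14 (1.04 to 1.26).

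Bins without RNA reads had run-on reads too, and more of them in shCuff. In the 276 bins of the Antennapedia complex without RNA reads, run-on had 250 reads in shCuff and 111 in the control, a ratio of 2.19 (1.74 to 2.76). The 278 such bins of the bithorax complex had 100 reads in shCuff and 77 in the control, a ratio of 1.26 (0.927 to 1.72). The same kind of bin elsewhere on the main arms, 57945 bins in all, had a ratio of 1.49 (1.478 to 1.503), with 0.954 RPKM in shCuff and 0.640 RPKM in the control. The shift towards shCuff in bins without RNA reads was thus seen across the arms. The interval of the Antennapedia complex lies above the value of the arms, and that of the bithorax complex holds it. Both intervals cover counting error only, and how far other regions of this size vary around the value of the arms was not tested. By level, such bins had 0.361 and 0.165 RPKM in the Antennapedia and 0.143 and 0.114 RPKM in the bithorax complex in shCuff and control run-on, below those elsewhere.

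By gene interval the run-on ratios had wide intervals. Antp had 99 reads in shCuff and 38 in the control (ratio 2.53, 1.72 to 3.78). For Scr the reads were 148 and 64 (ratio 2.25, 1.66 to 3.06), and for abd-A 46 and 13 (ratio 3.44, 1.82 to 6.93). Ubx had 32 and 25 (ratio 1.24, 0.714 to 2.19), Abd-B 24 and 12 (ratio 1.94, 0.934 to 4.26), and lab 5 and 8 (ratio 0.607, 0.156 to 2.10). The interval thus lay above 1 for Antp, Scr and abd-A and held 1 for the other 3 named here. Dfd had 2 and 1 reads and ftz 4 and 2, too few for a ratio. Of 56298 bins genome-wide with a mean of at least 1 RPKM over the run-on pair, 24.5% were higher in shCuff by 2-fold or more and 20.3% lower by as much. In the Antennapedia complex 38 bins passed this filter, 20 higher and 5 lower in shCuff, and in the bithorax complex 9 passed, 4 higher and 2 lower. A bin can pass on few reads and through the shCuff library alone, as 12633001 to 12634000 did with 11 reads in shCuff and 0 in the control, so these counts are a description only. With a single library on each side, these differences are between libraries, and a genotype effect cannot be told apart from a difference between the preparations.

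**Figure D5:**
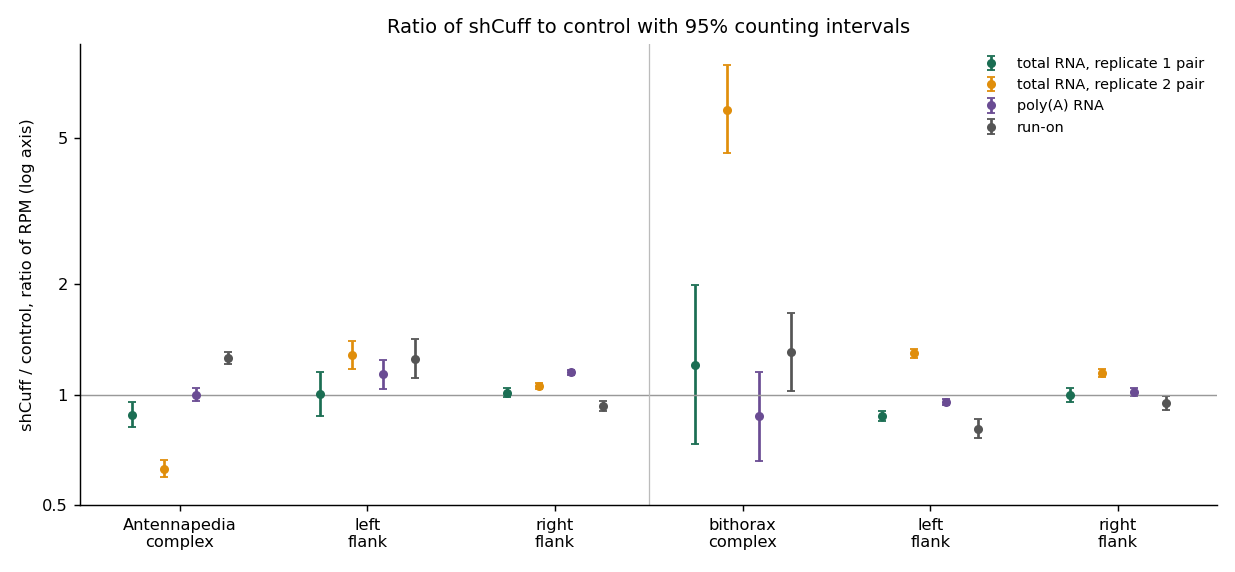
Ratio of shCuff to its control (ratio of reads per 1000000 library reads, log axis) with 95% exact counting intervals, for each complex and its flanks in the 2 total RNA pairs, poly(A) RNA and run-on. The bithorax complex is at 5.97 in the replicate 2 pair of total RNA and between 0.874 and 1.31 in the other 3 comparisons.

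The bcd interval was the one gene of the complexes with enough reads to compare in every assay. The ratio of shCuff to control was 0.809 (0.663 to 0.985) and 0.587 (0.526 to 0.654) in the total RNA pairs, 0.832 (0.746 to 0.929) in poly(A) RNA and 0.499 (0.407 to 0.609) in run-on. The bcd bins were uneven in the replicate 2 pair of total RNA. The bin from 2582001 had 3.68 RPKM in shCuff and 57.7 RPKM in shWhite, and that from 2583001 had 44.9 and 50.6 RPKM. The bin from 2584001 was higher in shCuff, at 19.7 against 14.2 RPKM. The bcd ratio was below 1 in 4 of 4 comparisons, but none of the bcd bins passed edgeR's test, and the run-on control is of another genotype. The chorion cluster, of follicle cells in late egg chambers, moved the other way in RNA, with ratios of 1.88, 1.40 and 1.81 in the total RNA pairs and poly(A) RNA, and with bcd in run-on, at 0.664. In whole ovaries, fewer cells of a type and less RNA per cell cannot be told apart, and the part of ovary composition in the bcd values was not tested.

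Relative to their own flanks, the complexes differed in direction in total RNA. Both had ratios below 1 in poly(A) RNA, where the bithorax interval includes 1. In run-on both were above 1, with 1 library on each side. For the Antennapedia complex the ratio of shCuff to control, divided by that of both flanks, was 0.872 (0.803 to 0.948) and 0.591 (0.558 to 0.627) in the total RNA pairs, 0.870 (0.831 to 0.911) in poly(A) RNA and 1.33 (1.27 to 1.40) in run-on. For the bithorax complex it was 1.31 (0.794 to 2.15) and 4.92 (3.76 to 6.54) in the total RNA pairs, 0.894 (0.676 to 1.18) in poly(A) RNA and 1.46 (1.14 to 1.87) in run-on. Leaving aside shCuff total RNA replicate 2, the RNA ratios of the bithorax complex have intervals that include 1.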

How the data were processed

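The 8 libraries were those with processed files of 14 samples, and the other 6 were not analysed here. Reads were processed with cutadapt and Bowtie 0.12.7 against dm3, per the submitters' processing notes. Each deposited file held the authors' RPKM and a count of reads per 1-kb bin. The deposited counts were whole in the first library set, and 1 to 8 bins per file were not whole in the second, so these were treated as the authors' estimated counts and rounded. Strand was not kept in the counts, and how reads of repeats were placed is not given in the sources used here.

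Levels are sums of reads per kb and per 1000000 library reads. Total RNA was tested with edgeR 4.0.16 (R 4.3.3) on counts scaled to library totals, with terms for genotype and library set, over bins that averaged 1 RPKM or more and over 10-kb windows, adjusted by Benjamini and Hochberg over all features tested, at 0.05. Libraries of a set deviated from their group means together (r = 0.587 over 27388 bins), and the sets come from the titles. The labels do not say whether replicates came from different flies, so the p-values reflect only how far these libraries differ, possibly for technical reasons. Bins of single-library pairs were compared where their mean over the pair was at least 1 RPKM. Ratios of single libraries have 95% exact conditional (Clopper-Pearson) intervals, which cover counting error only. A count of 0 allows up to 3 reads. Alternatives were DESeq2 1.42.0, limma 3.58.1, other scalings, filters and flanks, and leaving out libraries. Named bins were, in each complex, the 10 with the highest mean RPKM over the 8 libraries, the 3 highest in run-on, those called in total RNA, and up to 5 in each direction in poly(A) RNA and run-on among bins with at least 20 reads over the pair. The members and lists were chosen with earlier results of these data known.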

Additional observations from a re-analysis of the deposited data

How the results depend on the processing

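The comparisons of total RNA between shCuff and shWhite kept their direction in both complexes and stayed above an adjusted p of 0.05 under TMM factors, totals without the most abundant bin, DESeq2, limma, no filter, no replicate block and without each library. When 1 library was left out, the term for library set was dropped too. The log2 fold change was then -0.57 to -0.28 for the Antennapedia complex and 0.23 to 2.61 for the bithorax complex. Without the replicate block it was -0.42 and 1.87, and 0 bins and 0 windows were called anywhere. The scaling moved the median log2 fold change of the regions and windows tested, which was 0.23 with library totals, 0.10 with TMM and -0.00 with DESeq2. Leaving out the 10 kb at either end gave 3.42 for the bithorax complex (edgeR adjusted p = 0.444). Its size came from shCuff replicate 2, since the remaining bins had 1 and 400 reads in shCuff and 1 and 19 in shWhite. The counts of called bins and windows in the complexes were 0 in every fit run. Against flanks in total RNA, leaving out 1 library gave -2.95 to -2.70 for the Antennapedia and -8.03 to -7.19 for the bithorax complex. The Antennapedia comparison reversed with flanks of 50 kb (1.51 in total RNA, 2.82 in poly(A) RNA, 2.16 in run-on) and with the left flank alone (0.61, 1.22 and 2.47). The nearer and left flanks hold fewer reads. Outside its start and bcd the Antennapedia complex was below the left flank in total and poly(A) RNA. That comparison is uneven, since the flank kept its bins of most reads. In poly(A) RNA the log2 ratio of the Antennapedia complex to both flanks, -2.89, became -3.60 with flanks of 100 kb. It was -3.85 against the right flank, and -2.40 without the bin of most reads in the complex and in each flank. By share of bins with reads it was -2.43, and without the 10-kb ends -5.49. In run-on -0.60 became -1.07 with 100-kb flanks, -2.91 without the bins of most reads in complex and flanks, -3.12 without the complex's own top run-on bin and -1.51 against the right flank. For the bithorax complex, poly(A) RNA gave -8.05, and -8.71 (100-kb flanks), -9.52 (50-kb flanks), -9.40 (without top bins), -3.82 (share of bins), -13.4 (without ends), -8.43 (left flank) and -7.53 (right flank). Run-on gave -5.28, and -5.60, -5.73, -1.24 (share of bins), -5.48 (without ends), -4.79 (left) and -5.64 (right), the first 2 of these with flanks of 100 and 50 kb. The poly(A) ratio of the Antennapedia complex was 0.951 with TMM and 0.843 without its ends, and its run-on ratio 1.14 without the top bin. The flank settings at the ends, single flanks and the top run-on bin were chosen after seeing the data. Depth limits the bithorax values, with 36 and 34 reads in the replicate 1 libraries of shCuff and shWhite.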

Other observations

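The stretches of 330 kb that were quieter than the bithorax complex lay on other arms. In poly(A) RNA the lowest was on 2L from 21780001 to 22110000, with 0.00801 RPKM, against 0.0336 RPKM in the bithorax complex. Next came 3L from 24090001 to 24420000, with 0.0123 RPKM, 3L from 18150001 to 18480000, with 0.0137 RPKM, 3L from 10230001 to 10560000, with 0.0152 RPKM, and X from 7260001 to 7590000, with 0.0260 RPKM. The first 3 of these were also lower than the bithorax complex in total RNA, at 0.0495 RPKM on 2L and 0.0555 and 0.0525 RPKM on 3L, against 0.0735 RPKM. In run-on none of the 354 stretches was lower. The genes of these stretches were not looked up, since no dm3 annotation was used here.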
